A study of Homo sapiens with 18 samples.

Results

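Small RNA from whole control cells (total) was compared with small RNA from the nuclear (nuc) and the cytoplasmic (cyto) fraction of the same cell line. Each fraction was first compared with total on its own, and RNAs were then listed whose share in total lay above, or below, their share in both fractions. The members are the rows of at most 500 nt in the deposited count table that held a count, with rows of identical counts taken once. This gave 6410 members of 175935 rows in the table. Of these members, 2048 held enough counts in the control libraries to be tested and 4362 did not, 285 of them because they held no control count at all. The tested members held at least 99.756% of the counts of all members in every control library.

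HEK293T, a human embryonic kidney epithelial line, was transfected for 48 h with a scramble siRNA (control) or with an siRNA against SSB (siSSB) using RNAimax. Small RNA was taken up with the mirVana PARIS kit and made into NEBNext small RNA libraries that the labels mark as PNK-treated, a kinase step that acts on RNA ends. The 9 control libraries, 3 each of total, nuc and cyto, carried the scramble siRNA and form the comparisons. The 9 siSSB libraries of the same layout served only as further libraries in which the same measure was read. The study's methods call the replicates biological and handled within a day, without saying what separates them, so the p-values measure the spread between these libraries. In bulk RNA, fewer cells and less RNA per cell cannot be told apart.

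Small nucleolar RNAs (snoRNAs) sit in the nucleolus and guide the chemical modification of other RNAs. Box C/D snoRNAs guide ribose methylation and carry a C box near the 5′ end and a D box near the 3′ end. Box H/ACA snoRNAs guide pseudouridylation. Most human snoRNAs are released from introns of host genes, often of genes for ribosomal proteins or of noncoding genes. Transfer RNAs (tRNAs), Y RNAs, vault RNAs, 5S rRNA and snaR-A are short products of RNA polymerase III, and most tRNA and mature microRNA (miRNA) works in the cytoplasm.

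The results turn on box C/D snoRNAs that share a host gene and yet differ between total and nuc. Those of NOP56, which codes for a core protein of C/D particles, are shown first, together with SNORD27 and SNORD30 of the noncoding host gene SNHG1, SNORD59A of ATP5F1B and SNORD48 of SNHG32. All lie in introns of the host's canonical transcript. Sequences were copied from GENCODE 44 (hg38), with the letters TGATGA (C box, searched in the first 25 bases) and CTGA (D box, the last match, within 20 bases of the 3′ end) in capitals where they occur on the RNA strand.
SNORD56 (chr20:2656624-2656694, plus strand): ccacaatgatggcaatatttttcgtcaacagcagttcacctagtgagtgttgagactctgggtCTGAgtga
SNORD57 (chr20:2656939-2657010, plus strand): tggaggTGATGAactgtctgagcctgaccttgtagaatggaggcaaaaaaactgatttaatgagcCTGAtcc
SNORD86 (chr20:2656097-2656182, plus strand): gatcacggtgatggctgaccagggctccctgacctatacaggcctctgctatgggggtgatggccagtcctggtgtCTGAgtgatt
SNORD110 (chr20:2654212-2654286, plus strand): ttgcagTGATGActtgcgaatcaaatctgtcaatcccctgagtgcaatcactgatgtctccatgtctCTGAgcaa
SNORD27 (chr11:62855012-62855083, minus strand): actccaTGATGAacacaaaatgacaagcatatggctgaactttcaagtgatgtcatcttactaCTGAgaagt
SNORD30 (chr11:62853663-62853732, minus strand): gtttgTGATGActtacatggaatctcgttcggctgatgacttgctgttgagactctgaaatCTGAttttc
SNORD59A (chr12:56645027-56645101, minus strand): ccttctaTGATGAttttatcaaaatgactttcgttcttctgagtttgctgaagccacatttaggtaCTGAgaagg
SNORD48 (chr6:31835263-31835326, plus strand): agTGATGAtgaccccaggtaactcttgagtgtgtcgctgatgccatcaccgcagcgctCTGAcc

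Values are raw counts that the authors made per row. A share is a count relative to the sum over all members of that library (the short-row sum), and CPM is the count per 1000000 counts of that sum. The short-row sums ran from 2471886 to 5143543 counts in cyto, 5692800 to 7971280 in nuc and 4702690 to 6422374 in total. A value of 3 counts, the limit that a count of 0 allows, was at most 0.000121% of a library, for counting error only. Most classes went with the labels of the fractions. SnoRNAs together took 78.5% ± 1.3 of nuc and 9.84% ± 1.6 of cyto (SD, n = 3), and tRNAs 0.887% ± 0.068 and 27.6% ± 1.4. Some nuclear RNAs went against the label. 7SK, a regulator of transcription elongation, took 0.0219% to 0.0244% of nuc and 0.357% to 0.462% of cyto, and U7, which acts in histone mRNA processing, took 0.00702% ± 0.0028 of nuc and 0.272% ± 0.068 of cyto. For U1, U6 and the class of U2, U4 and U5, spliceosomal RNAs of the nucleus, the nuc and cyto ranges overlapped. Some libraries stood apart from their group. Cyto replicate 3 held 2.32% miRNA against 6.24% and 6.33%, and total replicate 1 held 0.714% H/ACA snoRNA against 0.422% and 0.388%. Their part in the results was not tested beyond leaving each out.

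On shares, total lay between the fractions for most classes, and on a linear scale most stood nearer to nuc. The position of the total mean was set to 0 at the cyto mean and to 100 at the nuc mean, and was given only where the nuc and cyto ranges did not overlap. It was 64.5 for box C/D snoRNAs, 66.7 for tRNAs, 63.5 for Y RNAs, 70.2 for vault RNAs, 68.7 for mitochondrial tRNAs and 58.4 for fragments of 18S, 28S and 5.8S rRNA. Others stood closer still to nuc, with 86.8 for miRNAs, 82.2 for 7SK and 80.6 for U7. At the other end, close to cyto, the position was 11.9 for H/ACA snoRNAs and 13.9 for 5S rRNA. Without 1 library at a time the position of H/ACA snoRNAs ran from 7.82 to 14.2, that of 5S rRNA from 3.61 to 21.8 and that of C/D snoRNAs from 63.7 to 66.2. These positions carry no test, and they depend on the linear scale and on the denominator. As log2 fold changes, total was nearer to cyto in several of these classes. The medians against nuc and cyto were 3.54 and −1.55 over tRNA rows and 4.27 and −1.90 over Y RNA rows. C/D snoRNAs (−0.28 and 2.31) and 7SK (2.01 and −2.16) stayed nearer to nuc. Per short-row sum without snoRNAs and scaRNAs, several classes moved nearer to cyto than to nuc. There tRNAs stood at 37.2, Y RNAs at 30.3, vault RNAs at 43.6, mitochondrial tRNAs at 43.5 and the rRNA fragments at 3.86. On that denominator miRNAs stood at 78.3, 7SK at 75.3, U7 at 66.3 and 5S rRNA at 109.2. Per column sum C/D snoRNAs stood at 93.1 and 5S rRNA at 54.7.

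The classes outside both fractions were snaR-A, the class of U3, U8 and U13, and miRNAs that lie inside another small RNA. snaR-A, a family of Pol III RNAs with near-identical gene copies on chromosome 19, took 0.351%, 0.410% and 0.390% of cyto, 0.840%, 0.567% and 0.595% of total and 0.116%, 0.0744% and 0.224% of nuc. All 3 total libraries thus exceeded all fraction libraries. U3 and U8 are snoRNAs that act in cleavage of the rRNA precursor. The class of U3, U8 and U13 took 0.149% to 0.196% of cyto, 0.485% to 0.578% of total and 0.359% to 0.417% of nuc. Its members differed. SNORD13 (U13) held 34.6, 30.7 and 35.4 CPM in cyto, 379, 217 and 110 CPM in total and 538, 725 and 812 CPM in nuc, so total lay between the fractions (−1.56 ± 0.34 against nuc, edgeR adjusted p = 0.000309). The miRNAs inside another RNA took 0.231% to 0.311% of total, under the 0.343% to 0.647% of cyto and the 0.829% to 1.41% of nuc. These rows can hold reads of the RNA around them. Of the 24 rows tested, 0 had all total shares under both fractions and 4 had them over both. The order is thus that of the summed class. Per short-row sum without snoRNAs and scaRNAs the position of this class was −0.24. The same order in snaR-A was not seen relative to tRNAs. The ratio of snaR-A to tRNA counts was 0.0121 to 0.0150 in cyto, 0.0536 to 0.0935 in total and 0.0865 to 0.268 in nuc, so total lay between the fractions or overlapped nuc. Relative to 5S rRNA the ratio was 0.0294 to 0.0323 in cyto, 0.0471 to 0.0763 in total and 0.0130 to 0.0488 in nuc. There every total library exceeded cyto, while the total and nuc ranges overlapped. Relative to C/D snoRNAs total lay between the fractions.

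**Figure D1:**
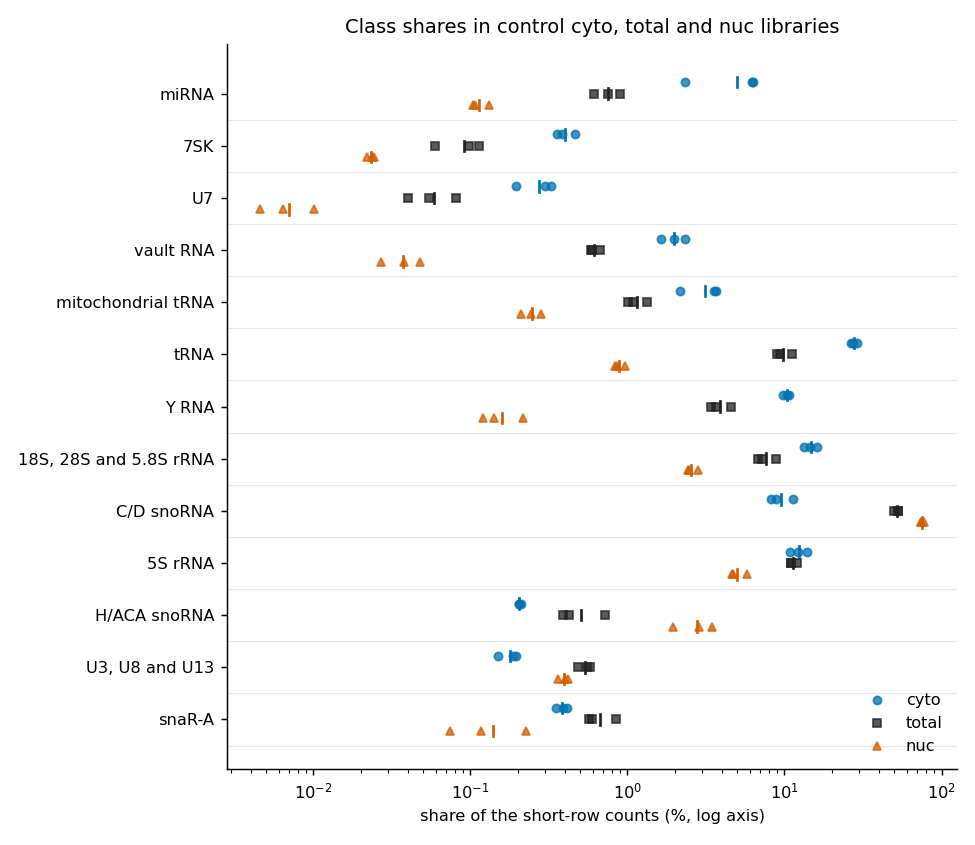
Share of the short-row counts (%, log axis) of 13 RNA classes in each control library, with circles for cyto, squares for total and triangles for nuc, and a bar at each group mean. Squares lie between circles and triangles for most classes. They lie beyond both in snaR-A and in U3, U8 and U13, and near the cyto circles in H/ACA snoRNA and 5S rRNA.

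Total against nuc asks which small RNAs of whole cells are missing from, or concentrated in, the nuclear libraries. Of all 20971 rows tested, 68.1% were higher and 3.4% lower in total (edgeR quasi-likelihood test, Benjamini-Hochberg adjusted p under 0.05). Of the 2048 members, 1505 (73.5%) were higher and 201 (9.81%) lower. The median log2 fold change was 2.62 over members and 1.69 over all rows. With TMM factors, which centre the rows, the median over all rows was 0.10, and 65.2% of the called members were higher, against 88.2% on shares. By class, 450 of 452 tRNA rows, 263 of 264 Y RNA rows, 253 of 287 miRNA rows and all 5 vault RNA rows rose against nuc. Most Y RNA rows are not the functional Y RNAs but copies of them. Near-identical copies can share reads, so such rows are not separate results.

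The leading rises over nuc were tRNAs and Y RNAs. RNY4, a Y RNA that binds the Ro60 protein, was at 26326, 23532 and 29632 CPM in cyto, at 8094, 8962 and 11107 CPM in total and at 436, 318 and 254 CPM in nuc. Total was 4.80 ± 0.27 (log2, SE) above nuc (adjusted p = 1.23e-14) and lower than cyto (−1.50 ± 0.23, adjusted p = 3.69e-06). RNY1 differed from nuc by 5.24 ± 0.30 and from cyto by −1.74 ± 0.26, RNY5 by 3.79 ± 0.28 and −0.94 ± 0.26, and RNY3 by 3.50 ± 0.30 and −1.03 ± 0.27. In all 4 functional Y RNAs the 3 groups did not overlap. The calls against cyto rested on the scaling. Under TMM factors the difference from cyto was −0.33 for RNY1, 0.48 for RNY3, −0.08 for RNY4 and 0.48 for RNY5, with edgeR adjusted p from 0.454 to 0.929. VTRNA1-2, a vault particle RNA, held 15342 to 22050 CPM in cyto, 5430 to 6232 in total and 224 to 430 in nuc, and showed the same order (4.12 ± 0.27 against nuc, −1.70 ± 0.24 against cyto). Under TMM factors its difference from cyto was −0.25 (edgeR adjusted p = 0.735). tRNA-Lys-TTT-3-1 had the largest log2 fold change over nuc by the naming rule, 6.62 ± 0.45 (adjusted p = 1.44e-13), with 1.05 to 4.14 CPM in nuc and 174 to 282 CPM in total, and tRNA-Leu-CAA-4-1 followed with 5.90 ± 0.35 (adjusted p = 1.28e-14).

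H/ACA snoRNAs mostly fell against nuc, while C/D snoRNAs went both ways. Of 121 tested H/ACA rows, 84 were lower in total than in nuc and 3 higher, with a median log2 fold change of −1.72. Of 167 tested C/D rows, 60 were lower and 38 higher, with a median of −0.28. Both medians moved with the scaling (−3.30 and −1.81 under TMM factors), but the ratio of 1 class to the other within a library has no scaling in it. C/D over H/ACA counts stood at 43.4, 39.2 and 55.9 in cyto, at 74.3, 125 and 128 in total and at 40.0, 26.0 and 21.3 in nuc. The 3 total libraries exceeded all 6 fraction libraries, also without total replicate 1, the lowest of them. The total libraries were also the highest for tRNA over miRNA counts, at 4.32 to 11.4 in cyto, 12.3 to 14.8 in total and 6.41 to 9.29 in nuc. In the other direction, 7SK over tRNA counts were 0.0130 to 0.0159 in cyto, 0.00660 to 0.0106 in total and 0.0228 to 0.0284 in nuc, with every total library under every fraction library. These ratios were picked from 8 computed, for the control libraries only. The tRNA over miRNA order did not carry over to every siSSB library. There miRNAs took 1.44% to 3.34% of total and 0.121% to 0.156% of nuc. The tRNAs took 8.14% to 9.34% of siSSB total and 0.777% to 0.896% of siSSB nuc.

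Both H/ACA and C/D snoRNAs were among the rows with the largest falls. The C/D snoRNA SNORD48 differed from nuc by −5.18 ± 0.30 and SNORD83A by −4.86. The H/ACA snoRNA SNORA47 held 209, 428 and 974 CPM in nuc, and 18.2, 5.52 and 1.28 CPM in total, beside 1.62 to 2.72 CPM in cyto (−5.97 ± 0.59 against nuc, adjusted p = 5.05e-10). SNORA80B differed from nuc by −5.06 ± 0.44. SNORA80A held 63, 84 and 163 counts in nuc, 2, 0 and 2 in total and none in cyto, too few for a fold change. SNORA2C, the H/ACA snoRNA with the most counts, held 3865, 5238 and 6500 CPM in nuc, 1026, 382 and 250 CPM in total and 59.1 to 61.4 CPM in cyto (−3.23 ± 0.36 against nuc, adjusted p = 4.47e-09). Its counts are also those of MIR1291, a miRNA row inside it. SNORA74A differed by −1.73 ± 0.36, and SNORA73B, at 12.3 to 22.3 CPM in nuc and 15.4 to 23.6 CPM in total, by 0.34 ± 0.39 (adjusted p = 0.417).

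Total against cyto asks the same of the cytoplasmic libraries. Of all rows tested, 3.63% were higher and 73.7% lower in total. Of the members, 259 (12.6%) were higher and 1305 (63.7%) lower, with a median log2 fold change of −1.37, against −1.44 over all rows. With TMM factors the median over all rows was −0.05 and 66.7% of the called members were higher, against 16.6% on shares, so the direction of most single calls in this comparison rests on the scaling. Most C/D snoRNAs rose over cyto on shares, and most H/ACA snoRNAs did not pass the test as higher. Of 167 C/D rows 153 were higher and 2 lower, with a median of 2.31 (3.79 under TMM factors), and of 121 H/ACA rows 46 were higher and 5 lower, with a median of 0.75 (2.22).

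The highest rises over cyto were the C/D snoRNAs SNORD10 (4.45 ± 0.40), SNORD12 (4.42 ± 0.31), SNORD105B (4.24 ± 0.36) and SNORD21 (4.03 ± 0.26), and the H/ACA snoRNA SNORA7A (4.14 ± 0.48), each with an adjusted p of at most 2.89e-08. Of these, SNORD10 held 1800, 704 and 438 CPM in total against 37.2 to 56.2 CPM in cyto and 1204 to 1630 CPM in nuc. Total replicate 1 was the highest total library in all 5. At the other end, miRNAs fell most. MIR148A, the miRNA with the most counts, held 9837, 10220 and 1912 CPM in cyto, 485, 677 and 620 CPM in total and 62.0, 77.8 and 66.6 CPM in nuc, a log2 fold change of −3.62 ± 0.38 against cyto (adjusted p = 2.78e-09) and 3.11 ± 0.37 against nuc. Of 287 miRNA rows tested, 270 were lower in total than in cyto, with a median of −2.68 (−1.20 under TMM factors). MIR21, an abundant miRNA of many cell types, differed from cyto by −3.46 ± 0.40 and MIR340 by −3.56 ± 0.44. MIR17 differed by −2.23 ± 0.38 from cyto and by −0.09 ± 0.36 from nuc (adjusted p = 0.806), while MIR92A1 of the same cluster differed from nuc by 4.33 ± 0.33.

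5S rRNA, the Pol III-made RNA of the large ribosomal subunit, stood close to cyto on shares. Of 118 tested 5S rows, 104 rose over nuc, but 16 fell and 7 rose against cyto. RNA5S8, the 5S row with the most counts, held 6231, 8135 and 7089 CPM in cyto, 6051, 6782 and 6173 in total and 2679, 3230 and 2572 in nuc. It differed from cyto by −0.17 ± 0.23 (adjusted p = 0.461) and from nuc by 1.16 ± 0.23 (adjusted p = 9.08e-05), a sign that turned under TMM factors (−0.41). Under TMM factors its difference from cyto was 1.30 (edgeR adjusted p = 0.0032), and the median over the 5S rows was also 1.30, against −0.17 on shares. Relative to tRNAs, total lay between the fractions. The tRNA over 5S ratio was 1.97 to 2.68 in cyto, 0.774 to 1.01 in total and 0.150 to 0.206 in nuc.

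**Figure D2:**
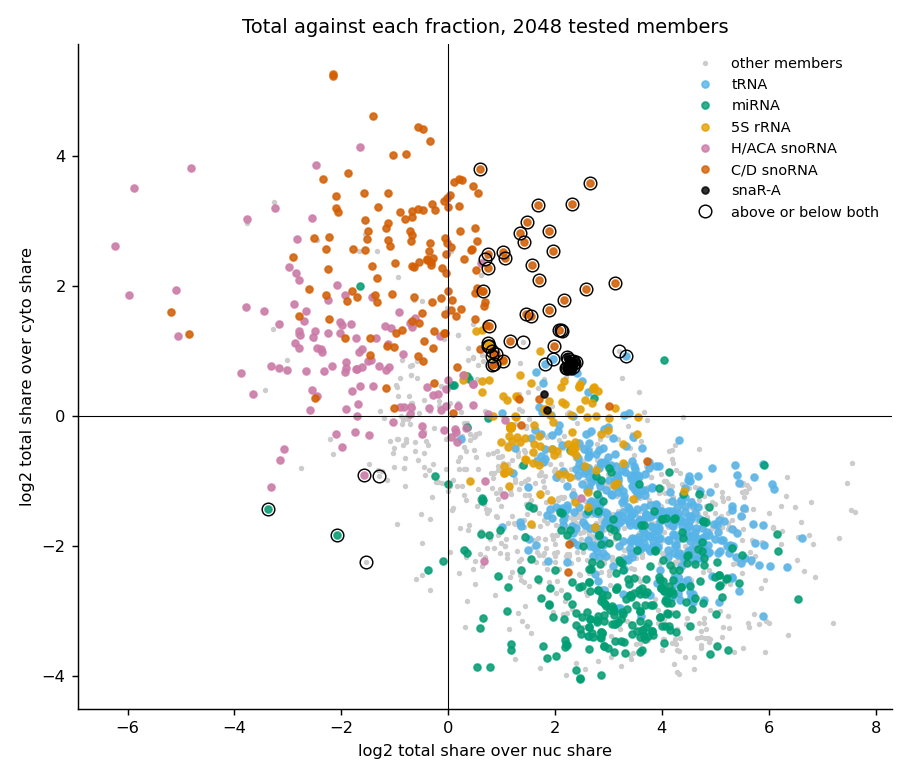
Log2 total share over nuc share (x axis) against log2 total share over cyto share (y axis) for the 2048 tested members, coloured by class, with rings around members called above or below both fractions. tRNAs and miRNAs lie at the lower right, snoRNAs at the upper left, and 54 ringed members reach the upper right quadrant. Both axes share the total libraries.

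Total was above both fractions, with both tests passed, in 54 members (2.64% of those tested) and below both in 5 (0.244%). Over all rows tested the shares were 0.448% and 0.181%. Both comparisons use the same 3 total libraries. Of the 54 members, 30 were C/D snoRNAs and 11 were snaR-A rows, out of 167 and 14 tested. A further 5 were 5S rRNA rows, 3 were tRNA rows, 2 were rows of MIR3609, and 1 each was the U8 snoRNA SNORD118, the tRNA-like tRX-Tyr-NNN-1-1 and an unlisted row that overlaps SNORD20. No H/ACA snoRNA was among them. In 46 of the 54 all 3 total shares exceeded all 6 fraction shares, a pattern seen in 3.42% of tested members and 0.577% of all rows. The 3 tRNA rows were not among these 46. Several of the 5S rows held nearly equal counts, and tRNA-Val-CAC-8-1 stood in more than 1 row. Such rows are not separate results. Without total replicate 1, 35 members were above both and 2 below both, and the count below both ran from 2 to 8 over the 9 libraries left out in turn.

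Which members were called above both depended on the scaling. With TMM factors 42 members were above both, of which 5 were among the 54, and those 42 were led by 16 rows of 5S rRNA and 11 of tRNA, with 4 C/D snoRNAs. With the column sum as library size 42 were above both, 39 of them C/D snoRNAs, and 22 were among the 54. Only 3 members were above both under all 5 other scalings tried, the C/D snoRNAs SNORD56, SNORD169 and SNORD14A. No snaR-A row was above both with TMM factors or with the column sum.

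By the smaller of its 2 fold changes, SNORD56 stood farthest above both fractions. It held 37.3, 43.3 and 62.6 CPM in cyto, 585, 617 and 523 CPM in total and 106, 81.1 and 86.2 CPM in nuc. Total exceeded nuc by 2.66 ± 0.32 (log2, adjusted p = 1.9e-08) and cyto by 3.58 ± 0.33 (adjusted p = 2.24e-10), and by 1.10 and 5.03 under TMM factors. SNORD169 held 16.6 to 26.4 CPM in cyto, 72.7 to 103 CPM in total and 9.69 to 21.3 CPM in nuc, so its nuc and cyto ranges overlapped while total stood above both (2.58 ± 0.37 and 1.95 ± 0.36). SNORD14A held few counts, 9 to 19 in cyto, 92 to 105 in total and 12 to 17 in nuc. Its difference from nuc was larger than that of SNORD56 and its difference from cyto smaller (3.12 ± 0.41 and 2.04 ± 0.40).

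The other leading C/D snoRNAs above both had smaller differences from nuc. SNORD53B, of the WDR43 gene, held 25.5 to 41.8 CPM in cyto, 274 to 355 CPM in total and 49.0 to 81.7 CPM in nuc (2.32 ± 0.33 over nuc, 3.26 ± 0.35 over cyto). The pair in ATP5F1B, a gene for a subunit of ATP synthase, moved alike. SNORD59A held 5171, 5810 and 6227 CPM in total and 1310 to 1583 CPM in nuc, and SNORD59B 13983, 14772 and 13953 CPM in total and 3339 to 4680 CPM in nuc, with log2 fold changes of 1.96 ± 0.25 and 1.88 ± 0.23. In cyto SNORD59A held 852 to 1251 CPM and SNORD59B 1711 to 2323. SNORD98 of CCAR1 exceeded nuc by 2.17 ± 0.33 and cyto by 1.79 ± 0.33, SNORD138 by 1.89 ± 0.34 and 1.64 ± 0.34, SNORD11 by 1.71 ± 0.32 and 2.10 ± 0.33, and SNORD1A by 1.54 ± 0.34 and 1.55 ± 0.34, the first of which was −0.083 under TMM factors. In all of these the 3 total libraries lay over all 6 fraction libraries. Under TMM factors the difference from nuc passed the test for SNORD56 and SNORD169 and for none of SNORD53B, SNORD59A, SNORD59B, SNORD98, SNORD138, SNORD11, SNORD27 and SNORD1A. SNORD118, the U8 snoRNA, exceeded nuc by 0.69 ± 0.25 (adjusted p = 0.0168), a sign that turned under TMM factors (−0.89), and cyto by 2.42 ± 0.26.

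SNAR-A14, the snaR-A row with the most counts, held 510, 588 and 570 CPM in cyto, 1152, 830 and 814 CPM in total and 176, 110 and 318 CPM in nuc. Total exceeded nuc by 2.21 ± 0.33 (adjusted p = 1.17e-06) and cyto by 0.75 ± 0.31 (adjusted p = 0.0325). Under TMM factors these differences were 0.71 (edgeR adjusted p = 0.208) and 2.26 (edgeR adjusted p = 5.64e-05). Nuc then lay above cyto, so the order of the 2 fractions for this row rests on the scaling. Reads of near-identical snaR-A copies cannot be told apart, so the 11 rows are not 11 separate results.

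The 5 members below both held few counts. MIR4449, with 2 rows of that name, held 4.79 to 8.90 CPM in cyto, 2.13 to 2.76 CPM in total and 24.5 to 28.5 CPM in nuc in the larger row. SCARNA8, a Cajal body RNA, held 10.3 to 14.2 CPM in cyto, 6.17 to 7.43 CPM in total and 13.8 to 20.03 CPM in nuc, and SNORA31 held 10.1 to 20.2, 7.16 to 10.2 and 20.7 to 35.3 CPM. The remaining row is a U2 variant with a mean of 7 counts. None of the 5 was below both with TMM factors.

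**Figure D3:**
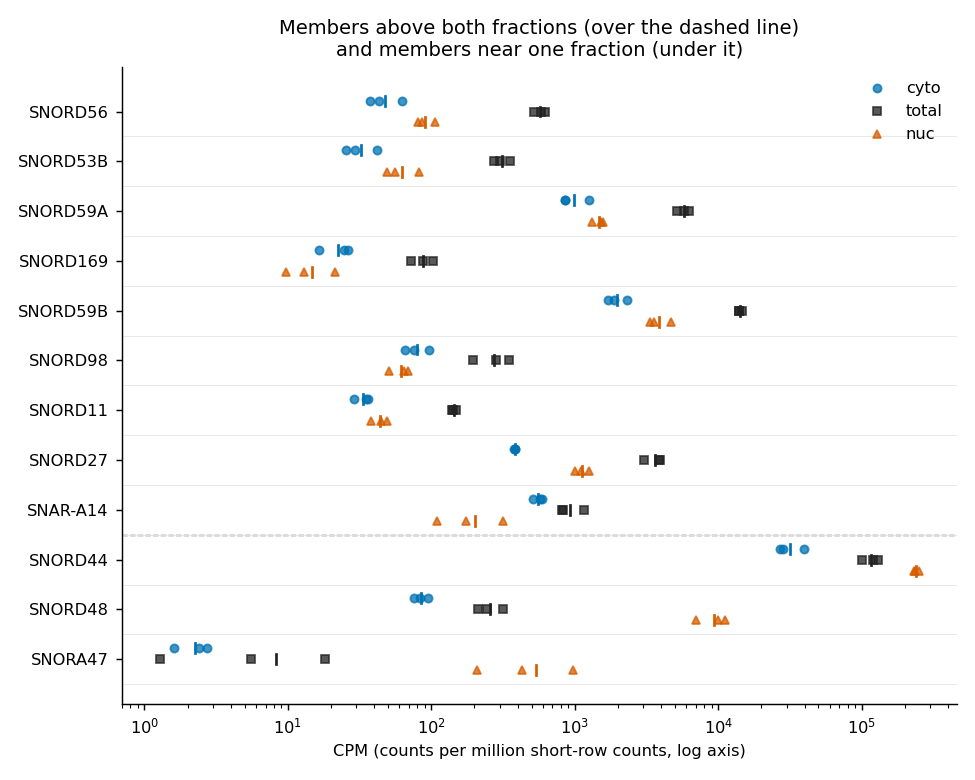
CPM (log axis) of 12 named RNAs in each control library, with circles for cyto, squares for total and triangles for nuc, and a bar at each group mean. For the 9 RNAs over the dashed line every square lies to the right of every circle and triangle. SNORD44 lies between the fractions, and SNORD48 and SNORA47 lie near cyto.

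Single C/D snoRNAs spread far more than their class mean shows. Of the 139 C/D rows with nuc above cyto (adjusted p under 0.05, ranges apart), the median position was 63.6, with quartiles at 31.8 and 107.3, and 40 lay beyond 100 while 26 lay under 25. Of the 92 such H/ACA rows, the median was 10.6, with quartiles at 4.89 and 17.8, and 77 lay under 25. Among rows with cyto above nuc, the median position was 68.4 for 449 tRNA rows, 75.3 for 264 Y RNA rows, 86.6 for 277 miRNA rows and 19.4 for 96 rows of 5S rRNA. SNORD44, a C/D snoRNA of the noncoding host GAS5 and the C/D row with the most counts, held 28179, 27137 and 39820 CPM in cyto, 99810, 119741 and 129592 CPM in total and 231609, 252914 and 235362 CPM in nuc. Its position was 40.7, and without it C/D snoRNAs as a class stood at 75.5.

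**Figure D4:**
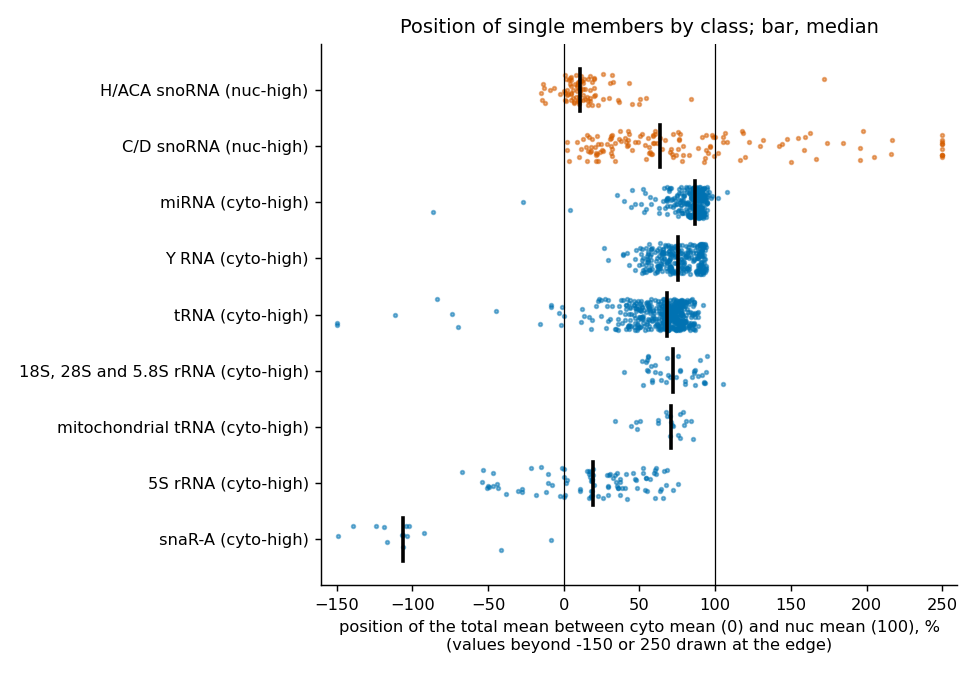
Position of the total mean between the cyto mean (0) and the nuc mean (100) for single members of 9 classes, with 1 point a row and a bar at the median. Nuc-high H/ACA snoRNAs cluster near 0, nuc-high C/D snoRNAs run from near 0 to beyond 100, and the 14 snaR-A rows lie under 0. The 10 C/D points and 2 tRNA points beyond the axis are drawn at its edges.

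The spread was present inside host genes. Of the C/D snoRNAs with a mean of at least 50 counts, 148 in all, 110 lay in 37 host genes with at least 2 of them, and the difference between the highest and lowest log2 fold change over nuc in a host had a median of 1.07. The standard error of a single value had a median of 0.31, and the SD of the values over all 148 was 1.30. Whether snoRNAs of 1 host are more alike than those of different hosts was not tested. The widest hosts were NOP56 (5.45), SNHG1 (4.59), RPL3 (4.05) and SNHG32 (3.87), and they were picked here for their width. On shares, some snoRNAs were higher and others lower than nuc in 4 hosts, NOP56, SNHG1, RPS12 and RPL23A. These directions rest on the scaling. Under TMM factors SNORD56 of NOP56 stayed higher (1.10), while SNORD27, SNORD28 and SNORD30 of SNHG1 (0.13, −0.16 and −0.25), SNORD101 of RPS12 (−0.94) and SNORD4B of RPL23A (−0.83) were not called. In GNL3, by contrast, 4 snoRNAs lay within 0.39 of each other, and in ATP5F1B 2 lay within 0.09.

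In NOP56 the neighbours of SNORD56 did not share its pattern. SNORD86 held 3.64 to 12.1 CPM in cyto, 23.7, 23.8 and 25.9 CPM in total and 182, 118 and 207 CPM in nuc (−2.79 ± 0.37 against nuc, adjusted p = 1.88e-07). SNORD110 differed by −2.60 ± 0.39 and SNORD57 by −0.01 ± 0.30 (adjusted p = 0.987). The ratio of SNORD56 to SNORD86 counts, which no scaling can alter, was 4.36, 11.9 and 5.19 in cyto, 24.7, 26.0 and 20.2 in total and 0.578, 0.689 and 0.416 in nuc. That of SNORD56 to SNORD57 was 0.781 to 1.55, 2.95 to 3.39 and 0.447 to 0.547. In both ratios every total library lay above every fraction library. In the ratio to SNORD110, total replicate 1 at 6.14 fell within the cyto range, which reached 6.85.

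SNHG1 carries 8 such snoRNAs, of which SNORD27, SNORD28 and SNORD30 were above both fractions. SNORD27 held 381, 376 and 386 CPM in cyto, 3934, 3842 and 3051 CPM in total and 1005, 1266 and 1112 CPM in nuc (1.68 ± 0.26 over nuc). SNORD31, from the same transcript, held 286 to 333 CPM in cyto, 1835, 1668 and 1523 CPM in total and 15335, 10071 and 12336 CPM in nuc (−2.91 ± 0.25, adjusted p = 2.34e-11). Their ratio was 1.14 to 1.31 in cyto, 2.004 to 2.30 in total and 0.0655 to 0.126 in nuc, again with total over both. SNORD30 over SNORD31 stood at 7.92 to 12.4 in cyto and 10.1 to 15.1 in total, which overlap. In SNHG32 the ratio of SNORD52 to SNORD48 was 1.29 to 2.003 in cyto, 4.67 to 5.45 in total and 0.277 to 0.384 in nuc. SNORD48 held 6964 to 11139 CPM in nuc, 210 to 314 in total and 75.8 to 94.9 in cyto. Its difference from nuc, −5.18 ± 0.30, was the lowest of the C/D snoRNAs named here. In RPS12 and RPL23A the ratio of the higher to the lower snoRNA was largest in cyto, so total did not lie outside. In RPL3, the gene of a large-subunit ribosomal protein, SNORD43 over SNORD83A stood at 22.3 to 55.4 in cyto, 112 to 121 in total and 3.95 to 12.4 in nuc.

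**Figure D5:**
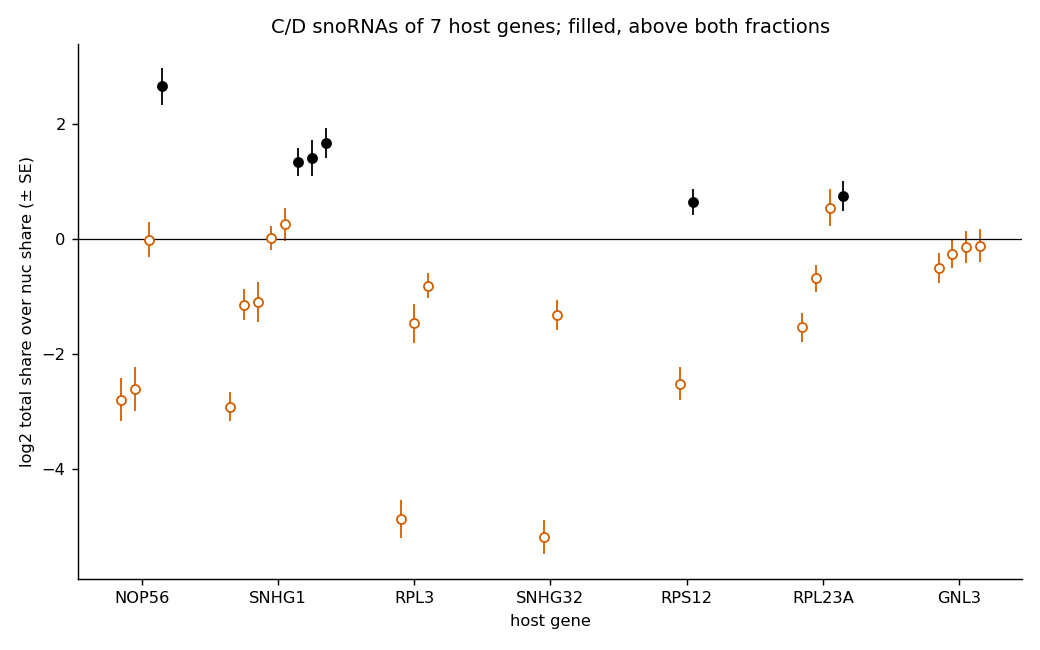
Log2 total share over nuc share (± SE) of the C/D snoRNAs of 7 host genes, 1 point a snoRNA, ordered by value within each host and filled where the RNA was above both fractions. NOP56 and SNHG1 span more than 4 log2 units, with filled points at the top, while the 4 snoRNAs of GNL3 lie together.

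Sequence features of the C/D snoRNAs above both were set beside those of the rest. Of the 167 tested rows, 126 matched 1 GENCODE snoRNA at their position, 24 of them above both. TGATGA stood in the first 25 bases in 70.8% of these 24 and in 60.8% of the other 102, and CTGA near the 3′ end in all 24 and 97.1% of the others. The median length was 76.5 nt against 79 nt, and the median GC content 39.8% (quartiles 37.3 and 43.4) against 44.4% (38.3 and 49.2). SNORD56 and SNORD86, printed above, hold no TGATGA in that window. These are descriptions with no test.

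The siSSB libraries share no sample with the control libraries. Of the 54 members above both, 53 were tested there. In 31 all 3 siSSB total shares exceeded all 6 siSSB fraction shares, as 0.682% of all rows did, and 24 passed both tests, as 0.477% of all rows did. This held for 29 of the 30 C/D snoRNAs by ranges and for 23 by tests. Of the 5 members below both, 4 were tested in siSSB and 0 passed both edgeR tests there, against 0.144% of all rows. SNORD56 held 519, 398 and 599.7 CPM in siSSB total, 82.6 to 105 CPM in siSSB nuc and 34.2 to 56.7 CPM in siSSB cyto. Over 148 C/D snoRNAs, which share libraries within each arm, the log2 differences of total from nuc in control and in siSSB had Pearson's r = 0.945 and Spearman's rho = 0.939. The ratio of SNORD56 to SNORD86 was 18.2 to 23.8 in siSSB total, 0.388 to 0.552 in nuc and 4.20 to 5.43 in cyto. Total also lay above both for SNORD56 over SNORD57 (2.03 to 2.88 in siSSB total, 0.762 to 0.884 in cyto), SNORD27 over SNORD31 (1.68 to 1.71, 1.25 to 1.34) and SNORD52 over SNORD48 (3.04 to 4.12, 1.41 to 2.17). For SNORD43 over SNORD83A it did not, since siSSB total ran from 35.1 to 134 and siSSB cyto from 27.0 to 36.4.

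None of the 11 snaR-A rows had all siSSB total shares above both fractions. SNAR-A14 held 283, 144 and 262 CPM in siSSB total, 406, 444 and 110 CPM in siSSB cyto and 36.2 to 64.3 CPM in siSSB nuc. Over the 11 rows the log2 difference of total from cyto was 0.74 to 0.92 in control and −0.55 to −0.47 in siSSB, but the test of that change passed for no row (smallest adjusted p = 0.9997, edgeR). The difference from nuc was 2.21 to 2.40 in control and 2.12 to 2.39 in siSSB. Over all 27051 rows of the joint fit, edgeR called 1 row for a changed difference of total from nuc, which is no member (0.0037%), and 0 for total from cyto, where 1259 rows had an unadjusted p under 0.05.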

How the data were processed

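The authors deposited raw counts per noncoding RNA row, with no normalization. Per the labels, Bowtie2, bedtools and hg38 were used. The study lists software versions for its eCLIP and RNA sequencing in general, with more than 1 for Bowtie2. Those used for these small RNA libraries, the treatment of reads with several positions and the use of strand are not given in the sources used here. Overlapping rows can hold the same reads (SNORA2C and MIR1291 have nearly equal counts), and near-identical copies share reads. Many rows carry 25-nt flanks. The 9 control libraries were fitted together with edgeR 4.0.16 (R 4.3.3, limma 3.58.1; glmQLFit, glmQLFTest, filterByExpr, group means, no covariate), with the short-row sum as library size, with Benjamini-Hochberg adjustment across every row tested. The standard error is the one implied by F. An exact permutation test of 3 against 3 libraries cannot go below p = 0.1 and was not used. Alternatives included DESeq2 1.42.0. The script was tested on simulated data.

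Named RNAs were a list of single RNAs, the member of each class with the highest mean share, the 10 members per set outside both fractions and the 5 highest and 5 lowest per comparison, among calls whose mean count reached 50 and whose groups did not overlap, with overlapping or same-named rows named once. SNORD14A, SNORA31, MIR3609 and tRX-Tyr-NNN-1-1, the other snoRNAs of host genes and the ratios were chosen after their values were seen. Members and lists were chosen with earlier results of these data known. Counts of 3 or fewer are not read as differences. Of the single RNAs, BCYRN1 and RNU6ATAC held 29 and 40 summed control counts and were not tested. Under the names RNU2-2P and SNORD3A (U3), members held 0 such counts, so these were not tested either.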

Additional observations from a re-analysis of the deposited data

Results flagged for a closer look

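One row was picked out because its difference between total and nuc changed on knockdown in the joint fit of all 18 libraries (edgeR interaction, Benjamini-Hochberg adjusted over 27051 rows). lnc-PRKAB2-5 (chromosome 1, 147082313 to 147083603, hg38), 1291 nt long and so no member, had a control minus siSSB difference of −5.552 ± 0.998 on the log2 scale (adjusted p = 0.043). Its counts were 7, 3 and 1 in the total and 1, 4 and 2 in the nuc libraries of control cells, against 563, 781 and 423 in siSSB total and 10, 7 and 13 in siSSB nuc. In cyto they were 6, 3 and 7 in control and 2493, 750 and 2108 in siSSB. The row was thus nearly absent from all control libraries and rose in siSSB cyto as well as in siSSB total. The control values lie near the limit of 3 counts, so the size of the difference is uncertain.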

How the results depend on the processing

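Between 1664 and 1828 members were called against nuc, 1411 to 1723 against cyto, 35 to 62 above both and 2 to 8 below both when 1 library was left out, against 1706, 1564, 54 and 5 with all. Without control total replicate 1, 35 were above both. Below both, the counts were 2 without control cyto replicate 1, 3 without control cyto replicate 2, 8 without control nuc replicate 2, and 2, 2 and 3 without control total replicates 1, 2 and 3. Calls against cyto numbered 806 with TMM factors, 883 with the sum without snoRNA and scaRNA and 790 with DESeq2. Above both stood 31 members with no filter beyond 1 count, 35 with DESeq2, 22 at an adjusted p under 0.01 and 24 at 2-fold or more. Below both stood 1 with TMM factors, 10 with the column sum, 2 with no filter, 2 with DESeq2, 2 at an adjusted p under 0.01 and 3 at 2-fold or more. The other settings (class-row sum, 300 nt limit, members alone, each pair of groups on its own, 1 row per overlapping run) left these 4 counts within 1.5 times. The higher share of the calls against nuc was 92.3% with the column sum and 73.2% without snoRNA, and against cyto 8.52% and 48.4%. The replicate block left 50 members above both and 5 below both (1688 and 1555 calls against nuc and cyto); same-numbered libraries correlated at 0.182 to 0.221 between cyto and nuc, but at −0.229 to 0.246 with total, so the numbers were not taken to pair samples.

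With TMM factors, the log2 fold change of total against cyto changed sign for 12 called RNAs and was RPPH1 0.40, RNY3 0.48, RNY5 0.48, VTRNA1-1 0.081, VTRNA1-3 0.46, RNA5-8SN1 0.52, MT-TE 0.60, tRX-Cys-NNN-4-1 0.23, MIR4449 0.041, SCARNA8 0.55, RF00019 0.24 and tRNA-Lys-TTT-1-2 0.67. With TMM factors, the log2 fold change of total against nuc changed sign for 5 called RNAs and was RNU12 −0.29, SNORD118 −0.89, RNA5S8 −0.41, tRX-Cys-NNN-4-1 −0.15 and SNORD1A −0.083. With DESeq2, the log2 fold change of total against cyto changed sign for 10 called RNAs and was RPPH1 0.31, RNY3 0.40, RNY5 0.40, VTRNA1-3 0.37, RNA5-8SN1 0.43, MT-TE 0.51, tRX-Cys-NNN-4-1 0.15, SCARNA8 0.46, RF00019 0.15 and tRNA-Lys-TTT-1-2 0.59. With DESeq2, the log2 fold change of total against nuc changed sign for 6 called RNAs and was RNU12 −0.35, SNORD118 −0.95, SCARNA2 −0.0051, RNA5S8 −0.48, tRX-Cys-NNN-4-1 −0.21 and SNORD1A −0.14. With the sum without snoRNA and scaRNA, the log2 fold change of total against cyto changed sign for 4 called RNAs and was RNA5-8SN1 0.025, MT-TE 0.087, SCARNA8 0.0201 and tRNA-Lys-TTT-1-2 0.19. With the sum without snoRNA and scaRNA, the log2 fold change of total against nuc changed sign for 1 called RNA and was SNORD118 −0.44. These counts cover named RNAs that were called on shares, and named RNAs not called there are left out. The cause was not tested.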
